A study of Danio rerio with 12 samples.

Results

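The ubiquitin-proteasome genes described here are the 63 array targets whose gene symbol begins with the name of a proteasome subunit, a ubiquitin-conjugating enzyme, a ubiquitin ligase or ligase adaptor, or a deubiquitinase (symbols that start with psm, ube2, rnf, trim, march, cul, fbx, kctd, klhl, asb, usp, or otu). They are 63 of the 37157 targets of the array and 63 of the 2663 targets that could be given a gene symbol, and each is a different gene. They comprise 2 subunits of the 20S proteasome core, 4 subunits of the 19S regulatory particle, 9 E2 enzymes, 11 RNF, 7 TRIM, and 2 MARCH ligases, 1 cullin, 8 F-box, 5 KCTD, 6 KLHL, and 3 ASB proteins, and 5 deubiquitinases. The rule also covers E1 enzymes, proteasome beta subunits, and the ATPases of the regulatory particle, but no named target matched those names. Sequences of the 63 genes are not analysed here.

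Ubiquitin is a small protein that cells attach to other proteins, most often to mark them for destruction. An E1 enzyme activates it, an E2 enzyme carries it, and an E3 ligase brings the loaded E2 to a chosen substrate. Many ligases hold a RING domain in 1 protein, as RNF, TRIM, and MARCH ligases do. Cullin-RING ligases are built from parts, with a cullin as the scaffold and F-box, KCTD, KLHL, or ASB proteins as substrate adaptors or receptors. The proteasome then unfolds and cuts the marked protein. Its 19S regulatory particle recognizes and opens the substrate, and its 20S core cuts it. Deubiquitinases remove ubiquitin again. In embryos this system drives the timed loss of cell cycle regulators and remodels growing muscle and nerve.

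Embryos of the wild-type AB zebrafish strain were held in water with 0 ppb Pb (control) or 100 ppb Pb, given as lead acetate, from shortly after fertilization until 72 or 120 hours post fertilization (hpf). Each of the 4 groups (control 72 hpf, Pb 72 hpf, control 120 hpf, Pb 120 hpf) has 3 arrays, and each array carries the RNA of 1 pool of about 50 whole embryos or larvae. All values are log2 intensities averaged over the probes of a target, and 53 of the 63 genes have 12 probes. Because whole animals were used, fewer cells of a type and less RNA per cell cannot be told apart.

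Median intensities of the deposited arrays ran from 376 to 670. The deposited values share 1 distribution only inside a pair of control and Pb arrays of the same number and stage. Each set of arrays normalized together thus holds 1 time point, and every stage difference is also a difference between such sets. Along the targets, signal changed more steeply from the first to the last probe on the Pb array of replicate 1 at 72 hpf (slope 0.608 on the log2 scale) and the Pb array of replicate 2 at 120 hpf (0.468) than on the other 10 arrays (0.0272 to 0.401), and the values of *usp9*, *kctd15b*, *asb2b*, *trim62.1*, and *fbxo7*, which rest on them in part, are also given without them. Of the tissue markers listed for whole larvae, blood had 2 named targets, heart 2, retina and lens 4, and skeletal muscle 1, whereas brain, liver, epidermis, gut, and cartilage had none. Of these markers only the embryonic globin *hbae3* passed the test between the stages, lower at 120 hpf by 1.01 on the log2 scale in controls (adjusted p = 0.0253) and by 0.99 with Pb (adjusted p = 0.0361). Its part in the results was not tested. Within groups, the pooled standard deviation (SD) of the 63 genes ran from 0.0961 to 0.971 with a median of 0.28, against a median of 0.324 over all targets.

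The 2 developmental stages were compared first, because the groups differed most between them. In control embryos 1 of the 63 genes rose and 1 fell from 72 to 120 hpf. *asb10*, whose product is a substrate receptor of cullin-RING ligases, rose, and *psmd2*, a scaffold subunit of the 19S regulatory particle, fell. In Pb-treated embryos *trim25*, a RING ligase known in mammals from the RIG-I antiviral pathway, rose, and *ube2c*, the E2 enzyme with which the anaphase-promoting complex marks mitotic cyclins, fell. The test was limma at an adjusted p under 0.05. It called 4.75% of all targets in controls (3.61% higher and 1.14% lower), against 3.17% of the 63 genes, and 2.96% of all targets with Pb (2.23% higher and 0.729% lower), again against 3.17%. The share of members called was thus close to that of the array as a whole. At an unadjusted p under 0.05 limma took 16 members in controls (25.4%, against 16.6% of all targets) and 14 with Pb (22.2%, against 14.5%). Members come only from the 2663 targets with a symbol. Of those it took 543 in controls and 487 with Pb at that level, larger shares than over all targets. At the adjusted p it called 152 and 104 of them, larger shares than over all targets and than among the 63 genes.

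The control and the Pb comparison of stages share no array. The log2 difference between stages had the same sign in both for 52 of the 63 genes (82.5%), against 76.8% of all targets, so shared direction was common on the array as a whole. Over the 63 genes the median difference was 0.00 in controls and -0.04 with Pb, and over all targets it was -0.04 and -0.05. In controls 32 members lay above 0 and 31 below. The 3 values of 120 hpf lay entirely above or below the 3 of 72 hpf for 26 members in controls (15 higher and 11 lower, 41.3%), against 30.7% of all targets (15.1% higher and 15.6% lower). With Pb this held for 15 members (7 higher and 8 lower, 23.8%), against 15% of all targets (7.97% higher and 6.98% lower). Of the 2663 targets with a symbol, 524 were higher and 446 lower in this way in controls, and 260 and 251 with Pb. These too are larger shares than over all targets.

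**Figure D1:**
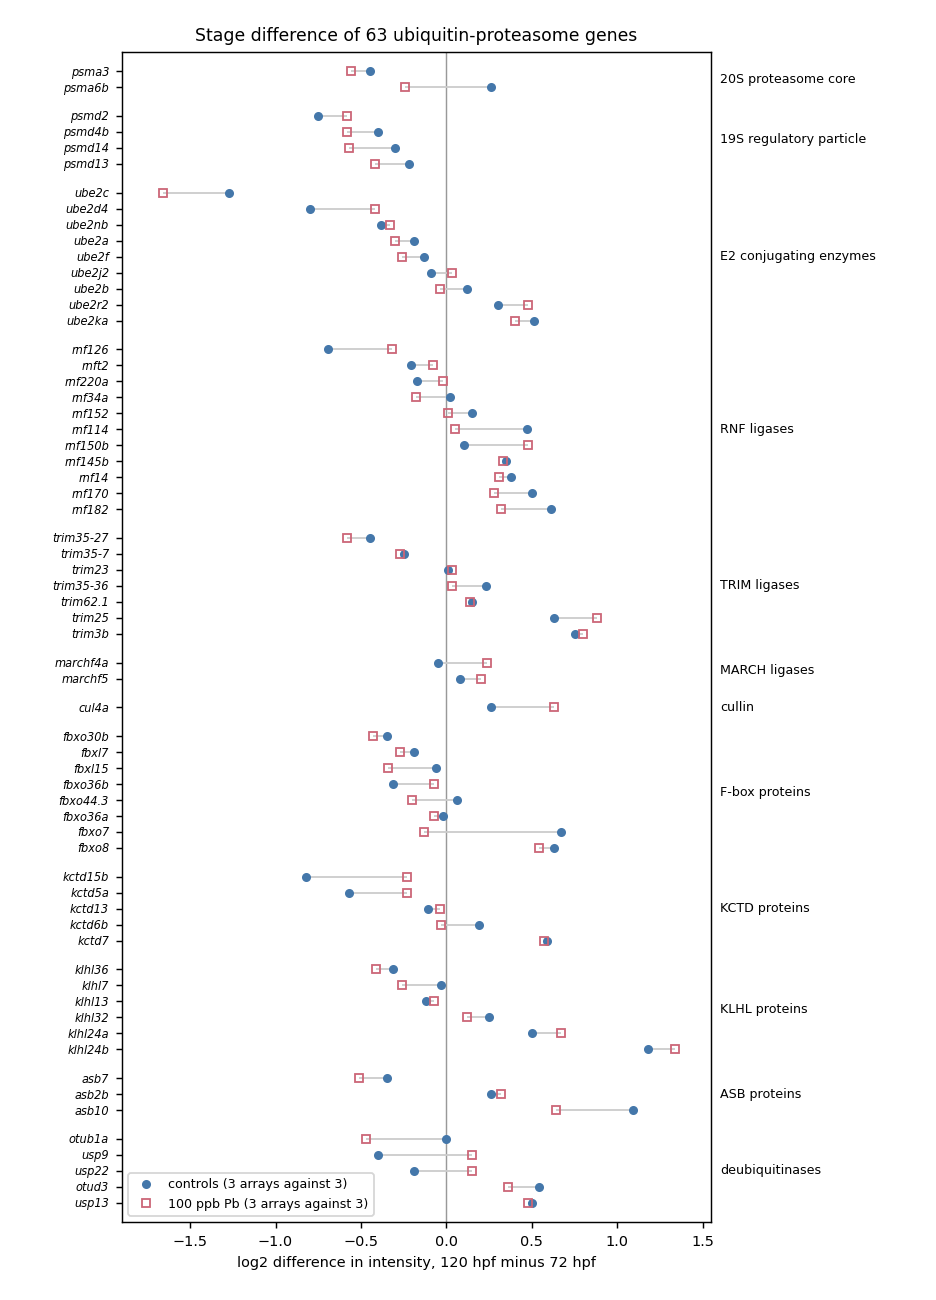
Log2 difference in intensity between 120 and 72 hpf (horizontal axis) for each of the 63 genes, grouped by class, in controls (filled circles) and in Pb-treated embryos (open squares), each from 3 arrays against 3. The 4 subunits of the regulatory particle lie left of 0 in both, *ube2c* lies farthest left, and *klhl24b* and *asb10* lie farthest right in controls.

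Control and Pb arrays were also averaged within each stage, a comparison chosen after the data were seen, which sets 6 arrays against 6. It called 10 of the 63 genes (15.9%), against 12.4% of all targets. This fit takes the control and the Pb array of a number as independent, and with the pair as a random block 7 of the 10 calls held, those of *fbxo8*, *rnf182*, and *trim35-27* being lost. Of the 10, 7 rose (*klhl24b*, *asb10*, *trim3b*, *trim25*, *kctd7*, *fbxo8*, and *rnf182*) and 3 fell (*ube2c*, *psmd2*, and *trim35-27*). Over all targets 7.62% were called higher and 4.74% lower. The 6 values of one stage did not overlap the 6 of the other for 10 members, 6 higher and 4 lower at 120 hpf (15.9%), against 8.54% of all targets (5.44% higher and 3.1% lower). They are not the same 10 genes as those called. *klhl36*, *rnf14*, *ube2ka*, and *ube2nb* did not overlap but were not called, and *asb10*, *fbxo8*, *rnf182*, and *trim35-27* were called but overlapped. Of the 2663 targets with a symbol 419 were called, and 198 were higher and 104 lower without overlap. Both are larger shares than over all targets, and the share called is close to that of the 63 genes. Genes called only in this averaged comparison were chosen for mention after their values were seen.

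Proteasome subunits lay lower at 120 than at 72 hpf as a class, though only *psmd2* passed the test. In controls 5 of the 6 subunits had log2 differences below 0, with a median of -0.35, and with Pb all 6 did, with a median of -0.57, against -0.04 and -0.05 over all targets. *psmd2* was at 13.21, 13.18, and 13.21 in the controls of 72 hpf and at 12.38, 12.62, and 12.35 in those of 120 hpf. With Pb it was at 12.85, 13.31, and 13.19 and then at 12.56, 12.40, and 12.66. All 6 values of 120 hpf lay below all 6 of 72 hpf, and 0 of its 12 probes were higher at 120 hpf in either comparison. The fall was 1.68-fold in controls (log2 fold change -0.75 with a standard error of 0.183, adjusted p = 0.0367) and 1.58-fold over control and Pb together (log2 fold change -0.66, standard error 0.13, adjusted p = 0.00504). With Pb alone the log2 fold change of -0.58 did not pass (adjusted p = 0.132). The averaged call was lost with the arrays centered on their medians (-0.52, adjusted p = 0.0913) and with the values as deposited (-0.80, adjusted p = 0.075). In controls the call was lost without any 1 of 5 of the 6 control arrays, all but replicate 2 of 120 hpf (adjusted p from 0.114 to 0.172), and without replicate 1 of Pb 120 hpf (adjusted p = 0.0555).

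The other subunits fell short of the threshold. *psmd14*, the deubiquitinase of the regulatory particle that strips ubiquitin from substrates, was at 12.92 ± 0.227 in controls and 13.02 ± 0.125 with Pb at 72 hpf, and at 12.61 ± 0.102 and 12.45 ± 0.326 at 120 hpf (SD, n = 3 arrays each). Its 3 Pb values of 120 hpf (12.35, 12.81, and 12.18) all lay below its 3 Pb values of 72 hpf (13.14, 13.02, and 12.89), whereas the control values overlapped. The ubiquitin receptor *psmd4b*, measured by 5 probes, had log2 differences of -0.40 in controls and -0.58 with Pb, and 0 of its probes were higher at 120 hpf in either. The core subunit *psma3* had -0.45 and -0.56, likewise with 0 of 12 probes higher. *psmd13*, a structural subunit of the lid of the regulatory particle and the member of that class nearest 0 in controls, had -0.22 and -0.42. None of these 4 passed the averaged test (adjusted p between 0.0734 and 0.213).

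*psma6b*, also an alpha subunit of the core, was the exception, at -0.24 with Pb and 0.26 in controls, where 11 of its 12 probes were higher at 120 hpf. On the arrays of replicate 2 of 120 hpf, *psma3* (12.82 in control and 12.95 with Pb) was as high as at 72 hpf, and *psmd13* and *psmd14* were also higher there than on the other 120 hpf arrays of their group. At 120 hpf the deviations of control and Pb arrays from their group means correlated across targets within each replicate number. The correlations were 0.548, 0.434, and 0.268 for numbers 1, 2, and 3. The 2 arrays of a number may thus not be independent, though this measure alone does not establish pairing.

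**Figure D2:**
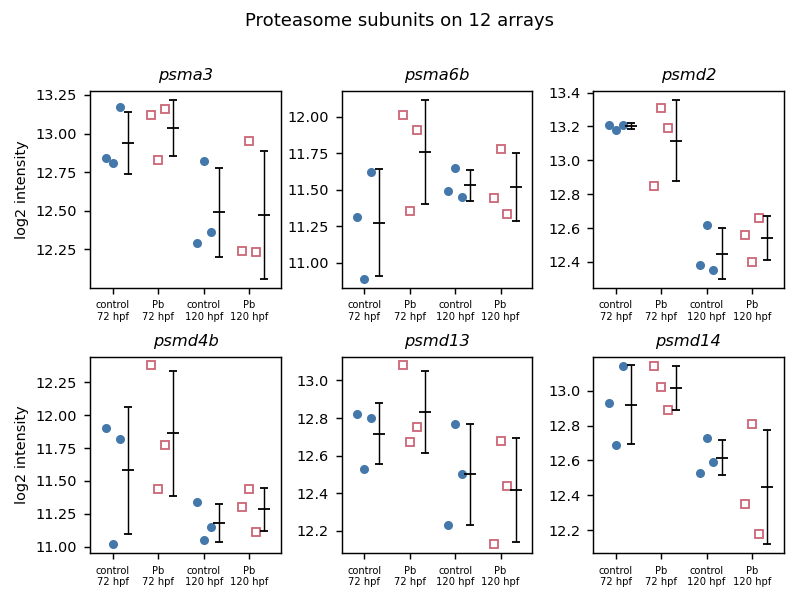
Log2 intensity (vertical axes, each with its own range that does not start at 0) of the 6 proteasome subunits on the 12 arrays. Filled circles are control arrays, open squares are Pb arrays, and bars give the mean ± SD of 3 arrays; for *psmd2* every 120 hpf value lies below every 72 hpf value.

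Among the 9 E2 enzymes, *ube2c* had the largest difference between stages of all 63 genes. It was at 11.45, 11.58, and 12.25 in the controls of 72 hpf and at 9.89, 11.08, and 10.49 in those of 120 hpf. With Pb it was at 12.32, 11.84, and 12.22 and then at 9.92, 10.99, and 10.49. The groups did not overlap, and at 120 hpf the control and the Pb array of each number gave nearly the same value, with number 2 the highest. The fall was 3.15-fold with Pb (log2 fold change -1.66 with a standard error of 0.344, adjusted p = 0.0207). In controls it was 2.42-fold, just short of the threshold (log2 fold change -1.27, adjusted p = 0.0562). The control fall was called with the replicate number as a block across the stages, a matching that the labels do not state. Over control and Pb together the fall was 2.76-fold (log2 fold change -1.46, standard error 0.243, adjusted p = 0.00178). None of its 12 probes was higher at 120 hpf. The averaged fall was called in all 25 other settings tried. With Pb alone it was lost without replicate 3 of Pb 72 hpf (adjusted p = 0.0728), replicate 1 of Pb 120 hpf (adjusted p = 0.0998), or replicate 3 of Pb 120 hpf (adjusted p = 0.0618).

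The other E2 enzymes went both ways and none passed. The class median was -0.13 in controls and -0.26 with Pb, with 6 of 9 below 0 in each. *ube2nb*, the E2 that builds Lys63-linked chains, ran from 11.94 to 12.15 in controls of 72 hpf and was at 11.54, 11.86, and 11.55 in those of 120 hpf, and with Pb at 12.09, 11.92, and 12.01 and then 11.60, 11.74, and 11.70. Its stages did not overlap in either comparison, but at log2 differences of -0.38 and -0.33 it was not called (adjusted p = 0.0795 averaged). In the opposite direction, *ube2ka*, which builds Lys48-linked chains, had 0.51 in controls and 0.40 with Pb, also with no overlap between the stages (adjusted p = 0.0594 averaged). *ube2r2*, an E2 that works with cullin-RING ligases, had 0.30 and 0.48. *ube2d4*, an E2 of the broadly acting UBE2D family, had -0.80 and -0.42, and its lowest values, 9.0 in control and 9.22 with Pb, were those of number 2 at 120 hpf. *ube2j2*, an E2 of the endoplasmic reticulum membrane, lay nearest 0 in controls, at -0.09. *ube2a* and *ube2b*, both counterparts of yeast Rad6, are close paralogs whose probes could detect each other's transcripts, and their averaged differences were -0.24 and 0.04.

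Of the 20 RING ligases, 14 lay above 0 in controls and 14 with Pb, with medians of 0.13 and 0.09. *trim25* was at 7.73, 8.08, and 7.85 in controls of 72 hpf and at 8.53, 8.19, and 8.82 in those of 120 hpf. With Pb it went from 7.91, 7.96, and 7.57 to 8.60, 8.74, and 8.75. The stages did not overlap in either comparison, and 11 of its 11 probes were higher at 120 hpf in both. The rise was 1.85-fold with Pb (log2 fold change 0.88 with a standard error of 0.207, adjusted p = 0.0385) and 1.69-fold averaged (log2 fold change 0.76, standard error 0.146, adjusted p = 0.00481). In controls the log2 fold change of 0.63 did not pass (adjusted p = 0.122). The averaged call was lost with the values as deposited. It was also lost with only probes no more than 500 nt from the last one, which leaves 1 of the 11. The call with Pb was the least stable of the planned calls. It held in 5 of 25 other settings and was lost without any 1 of 9 arrays (adjusted p from 0.0542 to 0.117), the exceptions being replicate 1 of Pb 72 hpf and replicates 2 and 3 of control 120 hpf.

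*trim3b*, whose mammalian counterpart is a brain-enriched ligase, was at 10.81, 10.78, and 10.56 in controls of 72 hpf and at 11.77, 11.07, and 11.57 in those of 120 hpf. Its Pb values were 10.89, 10.93, and 10.22 and then 11.84, 11.17, and 11.44. Every value of 120 hpf lay above every value of 72 hpf, on all 12 probes in the means of both comparisons, a 1.72-fold rise averaged (log2 fold change 0.78, standard error 0.184, adjusted p = 0.0148). *rnf182*, a membrane-bound ligase described in mammalian neurons, rose 1.38-fold averaged (log2 fold change 0.46, adjusted p = 0.0451), from 8.48 ± 0.158 to 9.09 ± 0.147 in controls and from 8.72 ± 0.293 to 9.03 ± 0.0628 with Pb. *trim35-27*, of the trim35 family that is expanded in fishes, fell 1.43-fold averaged (log2 fold change -0.52, adjusted p = 0.0425). The other 2 members of that family, with which it could cross-hybridize, had -0.26 and 0.13 and did not pass. The calls of *rnf182* and *trim35-27* were lost with the array pair as a random block (adjusted p = 0.0913 and adjusted p = 0.122) and held in 9 of 25 and 8 of 24 other settings. That of *rnf182* was lost without any 1 array but replicate 1 of Pb 72 hpf or replicate 2 of control 120 hpf (adjusted p from 0.0578 to 0.118), and that of *trim35-27* without any 1 of 8 arrays (adjusted p from 0.0605 to 0.107), the exceptions being replicates 1 and 2 of Pb 72 hpf, replicate 2 of control 120 hpf, and replicate 3 of Pb 120 hpf.

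Among RNF ligases that did not pass, *rnf14* at 0.35, *rnf145b* at 0.34, and *rnf170*, a ligase for inositol trisphosphate receptors, at 0.39 had the highest averaged differences after *rnf182*, and *rnf126*, a ligase of cytosolic protein quality control, had the lowest, at -0.50. *rnf126* was lowest, at 8.36, on the control array of replicate 2 at 120 hpf. *rnf114* had the widest spread of the class (SD 0.955 in controls of 120 hpf, where it ran from 7.12 to 9.01). *rnf34a*, a RING ligase, and *trim23*, a ligase that carries a GTPase domain, lay nearest 0 in controls, at 0.02 and 0.01. *marchf5*, a ligase of the mitochondrial outer membrane, and *marchf4a* had averaged differences of 0.14 and 0.10.

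Of the 23 parts of cullin-RING ligases, 4 rose in the averaged comparison (*klhl24b*, *asb10*, *kctd7*, and *fbxo8*) and none fell, where 7.62% of all targets were called higher and 4.74% lower, while the class median was -0.07. The largest rise was that of *klhl24b*, a CUL3 adaptor whose human counterpart acts on intermediate filaments of skin and heart. It was at 8.67, 9.0, and 8.70 in controls of 72 hpf and at 10.45, 9.42, and 10.04 in those of 120 hpf. With Pb it went from 8.31, 8.83, and 8.87 to 10.81, 9.35, and 9.89. The stages did not overlap, all 12 probes were higher at 120 hpf in both comparisons, and number 2 was the lowest of 120 hpf in control and Pb alike. The averaged rise was 2.4-fold (log2 fold change 1.26 with a standard error of 0.249, adjusted p = 0.0054), and 1.56 on the log2 scale without both number 2 arrays of 120 hpf, a setting added after the data were seen. In controls (log2 fold change 1.18, adjusted p = 0.0854) and with Pb (1.34, adjusted p = 0.0651) it did not pass on its own. Its paralog *klhl24a*, with which it could cross-hybridize, had 0.50 and 0.67 and was not called (adjusted p = 0.141 averaged).

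*asb10* was at 7.86, 7.23, and 7.60 in controls of 72 hpf and at 8.71, 8.33, and 8.93 in those of 120 hpf, with no overlap. With Pb it was at 8.20, 7.50, and 7.84 and then at 8.64, 8.04, and 8.78, where the lowest value of 120 hpf lay below the highest of 72 hpf. The rise was 2.13-fold in controls (log2 fold change 1.09, standard error 0.27, adjusted p = 0.0385) and 1.82-fold averaged (log2 fold change 0.87, standard error 0.191, adjusted p = 0.0103), and with Pb the log2 fold change of 0.64 did not pass (adjusted p = 0.285). In controls the call was lost without any 1 of the same 5 control arrays as for *psmd2* (adjusted p from 0.0656 to 0.186) and without replicate 1 of Pb 120 hpf (adjusted p = 0.0527).

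*kctd7*, a CUL3 adaptor whose human counterpart is mutated in a progressive myoclonic epilepsy, rose by nearly the same amount in control and Pb embryos. It was at 9.79, 9.84, and 9.62 in controls of 72 hpf, 9.75, 9.87, and 9.97 with Pb, 10.40, 10.29, and 10.35 in controls of 120 hpf, and 10.44, 10.23, and 10.61 with Pb. The stages did not overlap, and the differences were 0.59 in controls and 0.57 with Pb (1.49-fold averaged, standard error 0.122, adjusted p = 0.00804). With only the 2 probes that lie no more than 500 nt from the last one, the averaged call was lost (log2 difference 0.52, adjusted p = 0.112). *fbxo8*, an F-box protein with a Sec7 domain, rose 1.5-fold averaged (log2 fold change 0.58, adjusted p = 0.0267). Its control of replicate 2 at 120 hpf, at 10.13, lay within the 72 hpf range, and the call was lost with the array pair as a random block (adjusted p = 0.079). It was also lost without replicate 1 or 2 of control 72 hpf, replicate 1 or 3 of control 120 hpf, or replicate 1 of Pb 120 hpf (adjusted p from 0.0653 to 0.0848).

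**Figure D3:**
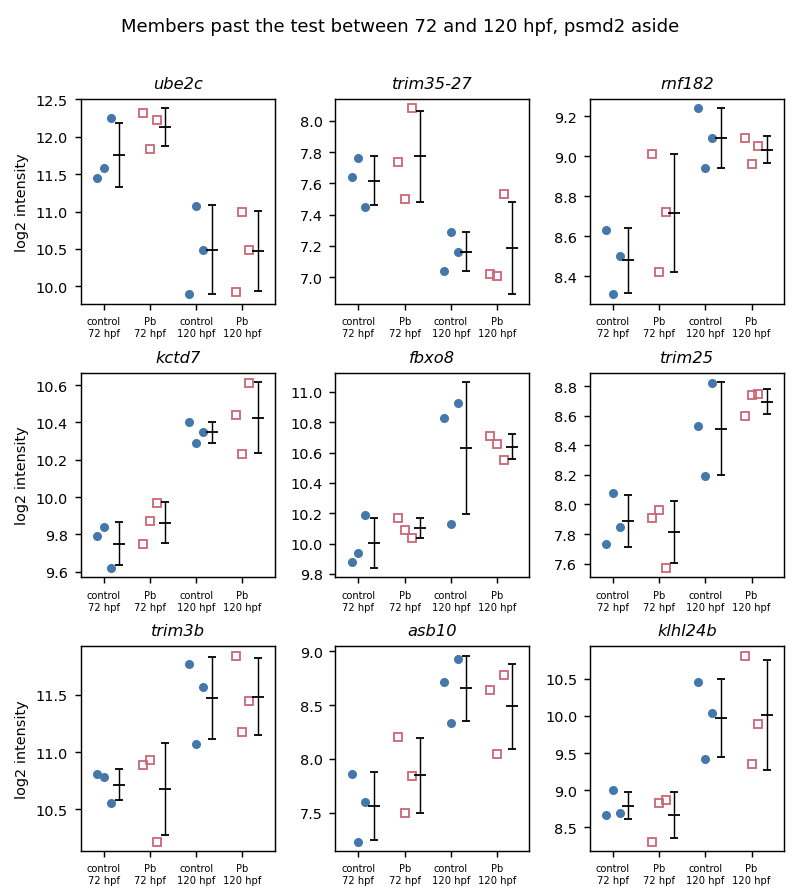
Log2 intensity (vertical axes, each with its own range that does not start at 0) on the 12 arrays for 9 of the 10 genes called between 72 and 120 hpf with control and Pb averaged, *psmd2* being shown with the proteasome. Filled circles are control arrays, open squares are Pb arrays, and bars give the mean ± SD of 3 arrays; *ube2c* and *trim35-27* are lower at 120 hpf and the other 7 are higher.

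The remaining adaptors did not pass. *klhl36* had the smallest spread of the 63 genes (pooled SD 0.0961), and its stages did not overlap, at averaged log2 difference -0.36 (adjusted p = 0.0663). The scaffold *cul4a* had 0.26 in controls and 0.63 with Pb. *kctd15b*, whose product limits neural crest formation in zebrafish, had -0.82 in controls, where the groups did not overlap, and -0.23 with Pb, where 1 array of 72 hpf was at 8.35 and the others were at 10.48 and 10.62. Without that array, replicate 1 of Pb 72 hpf, the difference with Pb was -0.96 (adjusted p = 0.136), and the averaged one went from -0.53 (adjusted p = 0.397) to -0.89 and was called (adjusted p = 0.0165). Without replicate 2 of Pb 120 hpf instead, the difference with Pb was 0.18, and the averaged one was -0.32 and not called (adjusted p = 0.623). Without both arrays they were -0.56 and -0.69, the averaged one being called (adjusted p = 0.00735). In the classes of F-box, KCTD, KLHL, and ASB proteins, *fbxo36a*, *kctd13*, *klhl7*, and *asb2b* lay nearest 0 in controls, at -0.02, -0.11, -0.03, and 0.26. *asb2b*, related to a mammalian receptor for filamins in muscle, had the widest spread of all members (pooled SD 0.971).

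Of the 5 deubiquitinases limma called none between the stages, and the medians were 0.00 in controls and 0.15 with Pb. *otub1a*, which removes Lys48-linked chains and also inhibits E2 enzymes, had 0.00 in controls and -0.47 with Pb, where the groups did not overlap. *otud3* had 0.54 and 0.36 and *usp13* 0.50 and 0.48, and their averaged differences missed the threshold (adjusted p = 0.0564 and adjusted p = 0.123). *usp22*, the deubiquitinase of the SAGA coactivator, had -0.19 and 0.15. *usp9*, a large deubiquitinase close to human USP9X, was at 11.72, 11.74, and 11.64 in controls of 72 hpf and at 11.33, 11.32, and 11.26 in those of 120 hpf. These groups did not overlap, and the control values varied little within them. The log2 difference of -0.40 did not pass limma (adjusted p = 0.79), whose spread for this gene comes from all 4 groups. The methods' test, which takes its spread from the control arrays alone, called *usp9* after Benjamini-Hochberg adjustment, the 1 member called in controls. That call rests on small SDs, 0.0515 at 72 hpf and 0.0393 at 120 hpf. The share of all targets called in that way is not given here, so the call does not single out *usp9*.

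Scaling bears on these directions. With the values kept as deposited, the median of all targets moved to -0.33 in controls and -0.33 with Pb, so differences lay lower, though not by the same amount in each class. The RING ligase median then turned to -0.18 and -0.20, still above the median of all targets. The proteasome median moved less, to -0.51 and -0.70, and was still below it. In the averaged comparison 31% of the calls over all targets were then higher at 120 hpf, against 61.7% with quantile normalization over the 12 arrays, and of the 63 genes only *ube2c* was called. Centered on array medians, the proteasome medians were -0.24 and -0.43, with 5 and 6 of 6 below 0, and the share of calls higher at 120 hpf was 84.7% in controls, against 76% in the setting reported.

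Other genes of the ubiquitin system came from lists of ubiquitin and related modifiers, HECT and further RING ligases, cullin-RING partners, further deubiquitinases, and shuttle factors. Of 374 listed genes 37 were measured. In controls 1 of the 37 rose and 0 fell, and with Pb 0 were called (median log2 difference 0.02 and -0.03), where 4.75% and 2.96% of all targets were called. *rbck1*, a subunit of the complex that builds linear ubiquitin chains, was at 8.70, 8.65, and 8.53 in controls of 72 hpf and at 9.51, 9.29, and 9.86 in those of 120 hpf. With Pb it went from 9.07, 8.52, and 9.04 to 9.47, 9.46, and 10.13, so the stages did not overlap in either. It rose by 0.93 on the log2 scale in controls (standard error 0.242, adjusted p = 0.0476), and by 0.87 averaged (adjusted p = 0.00534). *vhl*, the substrate receptor that marks hypoxia-inducible factors, rose in the averaged comparison only (log2 fold change 0.56, adjusted p = 0.0233), the second of 2 called there, against 12.4% of all targets. The proteasome shuttle protease *ddi2* had -0.58 in controls and -0.51 with Pb and did not pass. Between Pb and control embryos limma called 0 of the 37 at 72 hpf and at 120 hpf (medians -0.05 and -0.08), and no target of the array. At 72 hpf the RING ligase *mycbp2* was at 10.91, 11.41, and 11.22 with Pb and at 11.88, 11.42, and 11.52 in controls. These values did not overlap (log2 difference -0.43, adjusted p = 0.999), as for 4.7% of all targets.

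The second question was how Pb-treated and control embryos differed at each stage, the comparison for which the study was made. At 72 hpf none of the 63 genes passed the test, nor did any target on the array. limma called 0 members (0% of all targets, smallest adjusted p = 0.999), and at an unadjusted p under 0.05 it took 0 members and 1.52% of all targets. The methods' t-test took 0 members as well, at an unadjusted p under 0.05 and after adjustment. Of the members, 35 lay above 0 and 28 below, with a median log2 difference of 0.02 against 0.04 over all targets. The 3 Pb values were clear of the 3 control values for 3 members (4.76%), against 4.7% of all targets (2.78% higher and 1.92% lower). Of these 3, *fbxo7* was higher with Pb, and *kctd5a* and *usp9* were lower.

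*fbxo7*, an F-box protein whose human counterpart is linked to an early-onset parkinsonism, was at 8.37, 8.13, and 8.46 in controls and at 9.12, 8.51, and 8.59 with Pb at 72 hpf. The log2 difference was 0.42 (adjusted p = 0.999, standard error 0.215) and 0.23 without replicate 1 of Pb 72 hpf. The pair 1 ratio of 0.75 drew on 3 of its 10 probes, those at positions 1, 1583, and 1586 of the transcript, which gave 3.46, 1.62, and 2.29, while the others lay between -0.45 and 0.42. *kctd5a*, a CUL3 adaptor that acts on G protein subunits in mammals, was at 11.96, 11.90, and 12.02 in controls and at 11.49, 11.88, and 11.60 with Pb, a log2 difference of -0.30 (standard error 0.257), or -0.22 without replicate 1 of Pb 72 hpf. In pair 1 a single probe, at position 1391 of the transcript, gave -4.48 while the other 11 probes lay between -0.53 and 0.31.

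*usp9* had the lowest Pb difference of the 63 genes at 72 hpf, and it came mostly from 1 array. The Pb values were 9.32, 11.61, and 11.09, against 11.72, 11.74, and 11.64 in controls, which gave log2 ratios of -2.40, -0.13, and -0.55 in pairs 1, 2, and 3. The log2 difference of -1.02 (adjusted p = 0.999, standard error 0.552) became -0.35 without the Pb array of replicate 1. Along the transcript the ratio of pair 1 went from -4.53 at the probe at position 93 to -0.10 at the one at position 7502, the last. Its mean was -3.63 over the first 6 probes and -1.16 over the last 6. At 120 hpf the ratio of pair 2 did likewise, from -2.65 at position 93 to -0.21 at 7502, with means of -2.41 and -0.97. Both Pb arrays are those with the steepest change of signal along all targets. At that last probe the mean of the 3 pairs was -0.15 at 72 hpf and -0.02 at 120 hpf. In pair 3 a single probe, at position 5424, was low at both stages (-2.61 and -2.72).

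**Figure D4:**
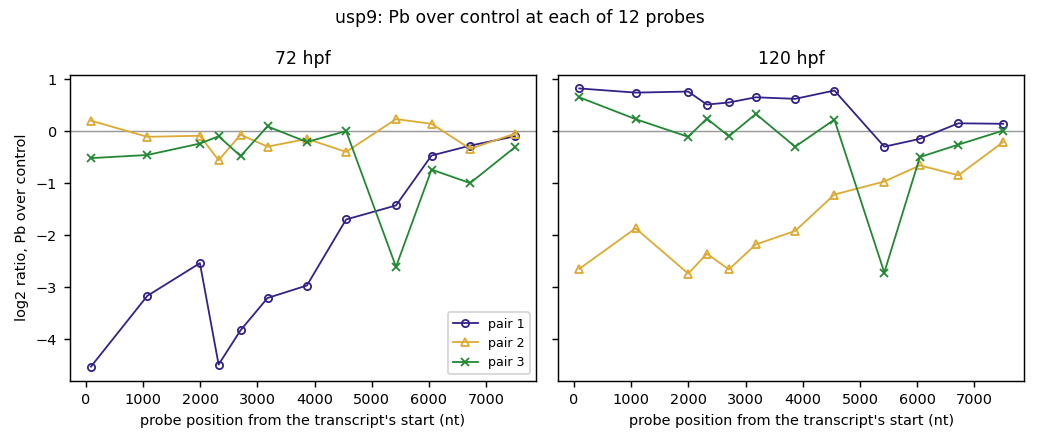
Log2 ratio of the Pb array over the control array (vertical axis) at each of the 12 *usp9* probes against the probe's position from the transcript's start in nt (horizontal axis), at 72 hpf (left) and 120 hpf (right). Lines join the probes of 1 pair; pair 1 at 72 hpf and pair 2 at 120 hpf climb from -4.53 and -2.65 at the first probe to -0.10 and -0.21 at the last, and the other pairs show no such climb.

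The Pb array of replicate 1 at 72 hpf also gave the lowest of all 12 values for 15 of the 63 genes (23.8%, against 13.6% of all targets), *usp9* among them. It gave the highest for 11 of the 63, a slightly smaller share than the 19.5% of all targets. Over all targets replicate 3 of Pb 72 hpf also stood apart, lowest for 16.4% and highest for 20.1%. Among the 63 genes it was lowest for 8 and highest for 8, smaller shares than those. For *kctd15b* the pair ratios at 72 hpf were -2.12, -0.24, and 0.19, for *asb2b* -1.63, -0.30, and 0.68, and for *trim62.1* -1.47, -0.08, and 0.37. At 120 hpf the same 3 genes were lowest with Pb in pair 2, at -0.72, -1.57, and -1.24. Without replicate 1 of Pb 72 hpf their Pb differences at 72 hpf went from -0.72, -0.42, and -0.39 to 0.01, 0.46, and 0.04, and without replicate 2 of Pb 120 hpf those at 120 hpf went from -0.13, -0.36, and -0.41 to 0.28, 0.24, and -0.08. Unlike *usp9* they were low over the first and the last probes alike on the first of these arrays (-1.99 and -2.24 for *kctd15b*, -1.46 and -1.80 for *asb2b*, -1.75 and -1.19 for *trim62.1*). These genes were chosen for mention after their values were seen. In pair 3 at 72 hpf the E2 enzymes *ube2a* and *ube2r2* were low with Pb, at -1.42 and -1.39, and *rnf34a* was high, at 1.06. Within a stage, each of these genes had its far ratio in 1 pair.

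By class, the Pb medians at 72 hpf lay on both sides of 0. The proteasome median was 0.11 with 5 of 6 subunits above 0, and it was 0.27, 0.23, and -0.03 in pairs 1, 2, and 3. The F-box median was 0.09 with 8 of 8 above 0, where 20715 of the 37157 targets lay above 0. The F-box differences ran from 0.01 to 0.42, and the medians were 0.17, 0.01, and 0.35 in pairs 1, 2, and 3. The cullin-RING median was 0.06, the E2 median -0.03, the RING ligase median -0.05, and the deubiquitinase median -0.14. *psma6b* was higher with Pb in all 3 pairs at 72 hpf, at 0.69, 0.46, and 0.29, on 12 of its 12 probes in the mean, yet Pb and control values overlapped, and the log2 difference of 0.48 (standard error 0.242) was not called. In all, 9 members were higher in the 3 pairs (14.3%), against 13.9% of all targets, and 4 were lower (6.35%), against 10.5% of them.

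At 120 hpf the Pb and the control values overlapped for every one of the 63 genes, whereas 4.04% of all targets did not overlap. limma called 0 members (0% of all targets, smallest adjusted p = 1), and at an unadjusted p under 0.05 it took 0 members and 0.301% of all targets, and the methods' t-test took 0 members at that level too. Of the 63 genes 25 lay above 0 and 38 below, with a median log2 difference of -0.05 against 0.00 over all targets. In the 3 pairs 3 members were higher (4.76%, against 11.4% of all targets) and 9 were lower (14.3%, against 9.99%). The medians ran from -0.17 for deubiquitinases to -0.01 for the proteasome over the 5 broad groups (proteasome, E2 enzymes, RING ligases, cullin-RING parts, and deubiquitinases), and within them the 2 MARCH ligases had the highest class median, 0.14. The lowest and the highest member differences were -0.52 for *rnf152*, a ligase of lysosomes, and 0.38 for *marchf4a*. *rnf152* was at 7.28, 8.44, and 7.93 in controls and at 7.10, 7.29, and 7.70 with Pb. Its farthest pair ratio was that of pair 2 (-1.15), where the control value was the highest. Without the Pb array of replicate 2 the *rnf152* difference was still -0.48. The *usp9* difference of -0.48 turned to 0.12 without the Pb array of replicate 2. A p that misses the threshold does not show that the groups were alike, and with 3 arrays a group the standard errors of these differences ran up to 0.652, that of *asb2b*.

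**Figure D5:**
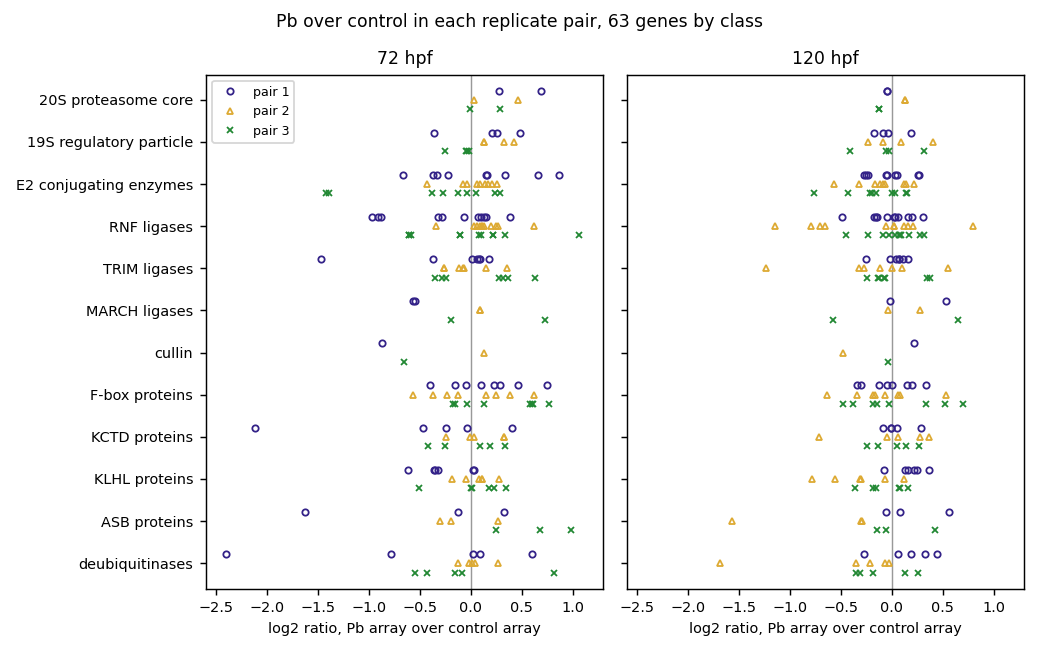
Log2 ratio of the Pb array over the control array (horizontal axis) in replicate pairs 1 (circles), 2 (triangles), and 3 (crosses) for the 63 genes by class, at 72 hpf (left) and 120 hpf (right). Most ratios lie near 0, and the far ones, such as -2.40 for *usp9* in pair 1 at 72 hpf and -1.69 in pair 2 at 120 hpf, belong to single pairs.

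Last, the Pb difference at 120 hpf was set against that at 72 hpf. limma called 0 of the 63 genes and 0% of all targets (smallest adjusted p = 1), and at an unadjusted p under 0.05 it took 1 member, *fbxo7*, and 0.202% of all targets. *fbxo7* was higher with Pb in the 3 pairs of 72 hpf (0.75, 0.38, and 0.13) and lower in the 3 pairs of 120 hpf (-0.34, -0.64, and -0.15). In pairs 1 and 3 its probes did not all share these signs at either stage. Nor did they in pair 2 at 72 hpf, where those at positions 1544 and 1590 gave -0.09 and -0.40. In pair 3 they ran from -2.91 to 2.09 at 72 hpf and from -1.52 to 0.69 at 120 hpf. The *fbxo7* probes at positions 224 to 845 lay, at 120 hpf, between -0.12 and 0.19 in pair 1 and between 0.04 and 0.69 in pair 3. At 120 hpf its controls were at 8.81, 9.15, and 9.01 and its Pb arrays at 8.47, 8.51, and 8.86, which overlapped. The difference between the stages was -0.80 on the log2 scale (adjusted p = 1), or -0.61 without replicate 1 of Pb 72 hpf and -0.56 without that array and replicate 2 of Pb 120 hpf. *asb10* also turned, with 0.33, 0.27, and 0.25 at 72 hpf and -0.06, -0.29, and -0.15 at 120 hpf, a difference of -0.45 (standard error 0.381, adjusted p = 1). Its pair 3 ratio at 72 hpf was 0.79 over the first 6 probes and -0.41 over the last 5. These 2 genes are 3.17% of the members, against 1.4% of all targets with pairs of one sign at 72 hpf and of the other at 120 hpf. In both genes the gap between stages in controls was the larger one, at 0.67 against -0.13 with Pb (0.06 without replicate 1 of Pb 72 hpf) for *fbxo7* and 1.09 against 0.64 for *asb10*. These pairs of values follow from the same 12 arrays as the Pb differences and add nothing to them.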

How the data were processed

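RNA of pooled zebrafish embryos was measured on 12 one-color oligonucleotide arrays, 3 in each of 4 groups, with 385000 probes. The authors deposited 1 linear intensity per probe and array, after quantile normalization that the values show to have been held within each control and Pb pair. RMA is named in the submitters' processing notes, its version not given in the sources used here. After log2 transformation, limma's quantile normalization was run across all 12 arrays and the probes of a target were averaged, with no background subtraction or pseudocount. limma 3.58.1 in R 4.3.3 was fitted with 1 mean per group and no replicate block, with Benjamini-Hochberg adjustment over 37157 targets at 0.05, two-sided. Replicates are the study's pools of 50, and precision is limited by how many arrays there are. Gene symbols came from the platform annotation (2626) and RefSeq (37), and 34494 stayed unnamed. The members and lists were chosen with earlier results of these data known. Named genes were members called and not overlapping in a stage comparison, the 3 highest and 3 lowest not overlapping in a Pb comparison, the member nearest 0 in each class of 3 or more, and up to 3 per list by p. Others were chosen after their values were seen. Replicate numbers were checked for pairing by the correlation of deviations from group means. At 120 hpf all 3 exceeded 0.1, so control and Pb arrays of 1 number were described as pairs there, a reading that rests on the values. At 72 hpf the correlations were 0.452, 0.402, and -0.069, so number 3 gave no sign of pairing in this measure. Its 2 arrays do share 1 distribution as deposited, like those of every other number. Ratios at 72 hpf follow the numbers only. Between the stages the same measure gave 0.203, 0.0598, and -0.117 for numbers 1, 2, and 3 of the controls. For the Pb arrays it gave -0.308, -0.455, and 0.551. A high value is thus not particular to control and Pb arrays of 1 number, and the measure alone does not establish pairing. The reported Pb tests have no pair term at either stage. Alternatives were the replicate block, other scalings and summaries, filters on dim targets, a variance trend, array weights, the methods' t-test, and each array left out. The replicate block was the pair within a stage for the Pb comparisons. For the stage comparisons and the difference of Pb effects it was the replicate number over all arrays. The labels do not say that a number at 72 hpf matches the same number at 120 hpf. limma's calls in the control comparison of stages were tried on simulated data with independent noise on each array. The simulation covered neither correlated pairs of arrays nor the averaged comparison. Planned promoter motif counts are not analysed here.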

Additional observations from a re-analysis of the deposited data

How the results depend on the processing

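The counts of members called between stages depended on the setting, and so did those over all targets. In controls the latter went from 1341 higher and 424 lower as reported to 352 and 147 with the values as deposited. The share of all targets is not given beside each count below. The counts therefore do not tell a change among members from one over the whole array. For Pb limma called no target of the array in any setting, so a member count of 0 is no sign of stability. Reported counts were 2 in controls, 2 with Pb, and 10 averaged, and 0 for Pb at 72 hpf, Pb at 120 hpf, and their difference, which stayed 0 without any 1 array and in every other setting tried. With the replicate block they were 3, 1, and 11, so *trim25* lost its call with Pb, *ube2c* was called in controls, and *ube2ka* was called averaged, and the block changed no Pb count. As deposited they were 0, 1, and 1, and with only probes no more than 500 nt from the last one 0, 1, and 5. Centered on array medians they were 0, 0, and 7, and with median polish 1 and 1. With Pb the count was 1 without the lowest 50% of targets and 1 with a variance trend. With only the 6 arrays compared the counts were 7 and 0. With array weights, where control replicate 3 of 120 hpf had a weight of 13 against at most 1.84 for the others, they were 27 in controls and 21 averaged. The methods' t-test after Benjamini-Hochberg adjustment gave 1, 0, and 17, and at p of at most 0.1 with a change of at least 1.5-fold it gave 11 in controls and 4 with Pb. Leaving out each array in turn gave 0 to 5, 0 to 2, and 7 to 13. Chosen after the data were seen, leaving out both number 2 arrays of 120 hpf gave 5 in controls, and leaving out the Pb arrays of number 1 at 72 hpf and number 2 at 120 hpf gave 7. The *usp9* Pb difference at 120 hpf, reported as -0.48, ran from -0.95 to 0.12 as each array was left out, and was 0.12 without Pb replicate 2 of 120 hpf, without both number 2 arrays, and without those Pb arrays. With the pair as a random block, 7 of the 10 averaged calls held (*asb10*, *kctd7*, *klhl24b*, *psmd2*, *trim25*, *trim3b*, and *ube2c*). Where a setting leaves out arrays, fewer arrays enter the fit, and for the other changes the cause was not tested. No set of arrays normalized together holds both stages, so every stage difference is also a difference between sets. Paralogs such as *klhl24a* and *klhl24b* may share signal.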
